A study of Mus musculus with 6 samples.

Results

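Genes that move iron and haem in and out of cells, store iron, break haem down or sense iron were followed in RNA from mouse glomeruli, the filtering units of the kidney. The 10 genes were Trf, Tfrc, Slc11a2, Fth1, Ftl1, Slc40a1, Slc25a37, Hmox1, Aco1 and Ireb2. They were chosen by name from the pathway, with earlier results of these data known. All 10 were found among the 57132 gene rows of the count table and passed the filter on low counts. The 6 libraries were all from mice carrying floxed Setdb2 alleles and labelled as having diabetic kidney disease. The Cre recombinase was absent from 3 of them (Cre_negative) and present in the other 3 (Cre_positive), and per the series' design text the question was how SETDB2 of podocytes, a putative histone methyltransferase, bears on this disease. The sources used here do not give the Cre driver, the diabetes model, or the age and sex of the mice. Nor do they say whether replicates were separate mice. The p-values therefore set the group difference only against the variation between these libraries, which may be technical in part.

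Iron reaches most cells bound to transferrin, is taken up through the transferrin receptor, leaves endosomes through the ferrous iron transporter DMT1, and is stored inside ferritin, a shell of heavy and light chains. Ferroportin exports it, mitoferrin carries it into mitochondria for haem and iron-sulfur cluster synthesis, and haem oxygenase 1 releases it from haem. In iron-poor cells the iron regulatory proteins IRP1 and IRP2 bind a hairpin in certain RNAs, the iron-responsive element. Bound near the start of a ferritin or ferroportin RNA they block its translation, and bound in the tail of the transferrin receptor RNA they protect it from decay. The kidney filters and reabsorbs transferrin-bound iron, and tubule cells meet haem when haemoglobin or myoglobin is filtered.

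The hairpins are shown here because 4 of the 10 genes share their pattern, and because the ferritin chains, whose ratio is given below, carry nearly the same hairpin. Capitals mark the 6-base loop, and the sequences are read from GENCODE M21 transcripts (GRCm38) in DNA letters, 5′ to 3′. The first 3 lie in 5′ UTRs, at bases 88 to 114 of Fth1-201 (chromosome 19), 79 to 105 of Ftl1-201 (chromosome 7) and 91 to 117 of Slc40a1-201 (chromosome 1).
Fth1: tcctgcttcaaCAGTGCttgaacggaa
Ftl1: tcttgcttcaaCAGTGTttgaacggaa
Slc40a1: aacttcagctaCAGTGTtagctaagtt
The next 4 lie in the 3′ UTR of Tfrc-201 (chromosome 16), starting at bases 3316, 3695, 3760 and 3807.
Tfrc element 1: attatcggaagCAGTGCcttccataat
Tfrc element 2: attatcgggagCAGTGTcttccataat
Tfrc element 3: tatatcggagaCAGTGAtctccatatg
Tfrc element 4: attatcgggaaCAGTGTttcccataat
The letters searched were a C, 5 bases, CAGTGN and 5 bases that pair with the first 5 (G with T allowed), on the transcript strand, and each is printed with 5 bases on either side. Of 21901 genes with protein-coding transcripts, 294 (1.34%) held such letters, among them 4 of the 10 genes. The letters were not matched in Slc11a2, Slc25a37, Hmox1, Aco1, Ireb2 and Trf, which says only that this exact pattern is not in those transcripts. Among the further iron and haem genes described below, Alas2 held it in its 5′ UTR.

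The libraries held between 53571438 and 58807042 counts. Xist, a long RNA of the inactive X chromosome, had 24 counts in Cre_positive replicate 2 and 36474 to 47632 in the other 5 libraries. The labels do not explain this difference, and no sex was assigned from it. The calls below were also counted without that library. Setdb2 had 370 to 591 counts in Cre_negative and 391 to 444 in Cre_positive libraries, which is -0.12 on the log2 scale (SE 0.18, adjusted p = 0.738 in edgeR's quasi-likelihood test), and the deleted part of the gene is not stated, so these counts do not check the genotype labels. The podocyte markers were present throughout, at a summed 589 to 693 CPM (counts scaled to a common library size) in Cre_negative and 767 to 854 in Cre_positive libraries, with 2 of 8 higher and 1 lower. The summed level of 10 proximal tubule markers was 8386 to 9427 against 11970 to 12670 CPM. Of these 10, 4 passed as higher, among them Lrp2 and Slc34a1, which make up much of the sum, and 6 did not pass, among them Slc22a6 at 457.9 to 737.4 against 324.5 to 379.5 CPM (log2 fold change -0.71, adjusted p = 0.0553). The summed level of 7 injured tubule markers was 252 to 669 against 139 to 169 CPM, with 5 lower. For 6 endothelial markers it was 322 to 344 against 488 to 525 CPM, with 5 higher. Without Cre_positive replicate 2, 1 podocyte marker was higher and none lower, 4 proximal tubule and 5 endothelial markers were higher, and 2 injured tubule markers were lower. In bulk samples, fewer cells of a type and less RNA per cell cannot be told apart, and the part of these cell types in the results below was not tested.

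Of the 10 genes, Hmox1 and Slc25a37 fell and Ftl1 and Slc11a2 rose in Cre_positive libraries, and 6 did not pass. Each gene was judged by edgeR's quasi-likelihood test at a Benjamini-Hochberg adjusted p of 0.05, taken over the 19927 genes that passed the low-count filter. In that comparison 7.55% of all genes passed, 3.73% higher and 3.82% lower. Without Cre_positive replicate 1, 2 of the 10 passed (3.4% of all genes), and only Hmox1 did without Cre_positive replicate 2 (2.94% of all genes) or replicate 3 (2.24%). The CPM values of the groups did not overlap for 5 of the 10 genes, the 4 above and Tfrc, where 29.7% of all genes tested did not overlap (15.2% higher and 14.5% lower). The median log2 fold change of the 10 was -0.02 and that of all genes tested was -0.0009. Because the 10 were chosen with earlier results of these data known, these shares do not test them as a set.

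**Figure D1:**
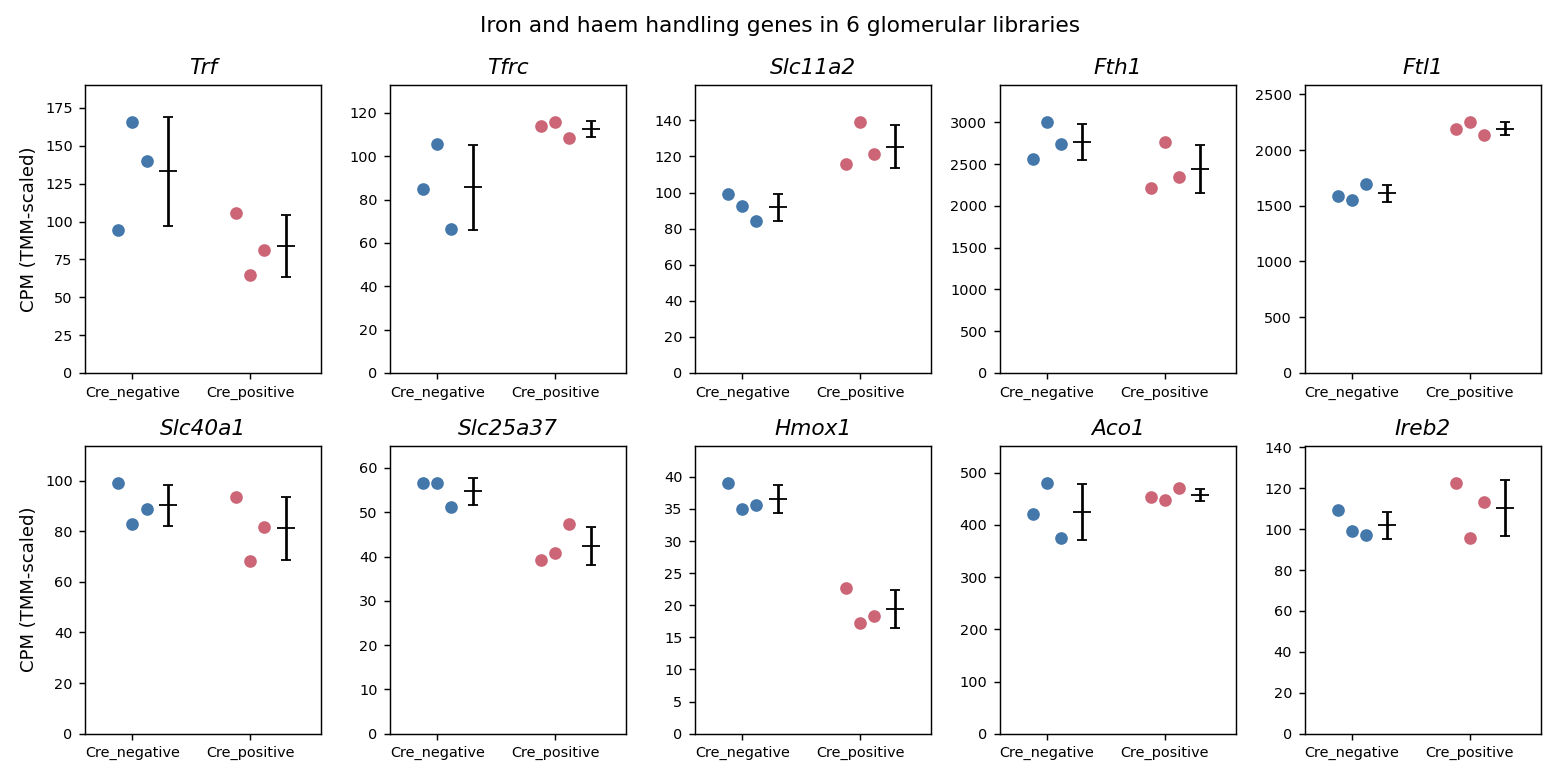
CPM of the 10 genes in each library, on axes that start at 0, with points for single libraries (blue Cre_negative, red Cre_positive) and bars for the mean ± SD (n = 3). Hmox1 and Slc25a37 lie lower, and Tfrc, Slc11a2 and Ftl1 higher, in all 3 Cre_positive libraries, while the groups of the other 5 genes overlap.

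Hmox1 (ENSMUSG00000005413) encodes haem oxygenase 1, the inducible enzyme that opens the haem ring to give biliverdin, carbon monoxide and ferrous iron. Its level was 39.0, 35.0 and 35.5 CPM in Cre_negative replicates 1, 2 and 3 and 22.7, 17.2 and 18.3 CPM in the Cre_positive ones. The highest Cre_positive library lay well under the lowest Cre_negative one. The means were 36.5 ± 2.16 and 19.4 ± 2.92 CPM (SD, n = 3), a 1.88-fold fall, or -0.91 on the log2 scale (SE 0.12, 95% interval -1.18 to -0.65, adjusted p = 0.00351). Among all genes tested its p ranked 176. Without Cre_positive replicate 2 the log2 fold change was -0.83 (adjusted p = 0.0194), and Hmox1 passed in each of the 14 other settings tried, with adjusted p up to 0.0281.

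Macrophages, which recycle haem from old red blood cells, can express Hmox1 strongly. The summed level of 10 macrophage markers was 278, 150 and 235 CPM in Cre_negative replicates 1, 2 and 3 and 170 to 174 CPM in Cre_positive libraries, so the groups overlapped. Csf1r, the most abundant of them, was at 62.8 to 97.8 against 85.0 to 100.8 CPM, and without it the sum was 198, 87.2 and 137 CPM against 86.8, 73.2 and 84.7 CPM, which did not overlap, though Cre_negative replicate 2 and Cre_positive replicate 1 were nearly equal. Of the 8 tested, C1qc was lower (log2 fold change -1.25, adjusted p = 0.0193) and 7 did not pass, and DESeq2 called 3. The fold change was negative for 7 of the 8, with a median of -0.71 on the log2 scale, and none passed with edgeR without Cre_positive replicate 2. Timd4 had 0 counts in all libraries and Vsig4 in 5. The summed level of the injured tubule markers, given above, did not overlap between the groups, and the part of either cell type in the Hmox1 result was not tested. The haem-scavenging receptor gene Cd163 was at 0.205 to 0.957 CPM in all 6.

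Slc25a37 (ENSMUSG00000034248) encodes mitoferrin, the carrier that brings iron across the inner mitochondrial membrane. Its level was 56.5, 56.5 and 51.2 CPM in Cre_negative and 39.1, 40.8 and 47.3 CPM in Cre_positive replicates 1, 2 and 3. The groups did not overlap, but Cre_positive replicate 3 came close to Cre_negative replicate 3. The log2 fold change was -0.37 (SE 0.092, 95% interval -0.58 to -0.16, adjusted p = 0.0448). This call was near the threshold: it ended when any library but Cre_negative replicate 3 was left out (adjusted p up to 0.154, reached without Cre_positive replicate 2), with limma voom (0.0600), with robust=FALSE (0.0512) and with the replicate number as a block (0.0715). Its wider-expressed relative Slc25a28, mitoferrin-2, was at -0.14 on the log2 scale (SE 0.079, adjusted p = 0.349).

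Mitoferrin is most abundant in developing red blood cells, whose genes were also examined. The summed level of the red blood cell markers (7 of 8 listed were in the table) was 107, 73.9 and 218 CPM in Cre_negative and 217, 292 and 582 CPM in Cre_positive replicates 1, 2 and 3, with means of 133 ± 75.5 and 364 ± 193 CPM (SD, n = 3). The globins made up most of this sum, and Epb42, a protein of the red cell membrane, was at 2.52, 0.68 and 0.889 CPM against 0.413, 0.474 and 0.839 CPM (log2 fold change -1.24, adjusted p = 0.218). None of the 6 red blood cell markers tested passed with edgeR, DESeq2 or limma voom, and 1 had an unadjusted p under 0.05. Alas2, the red-cell enzyme of the first step of haem synthesis, was at 1.58, 0.662 and 1.62 CPM against 2.94, 2.02 and 5.46 CPM, and did not pass (log2 fold change 1.43, SE 0.46, adjusted p = 0.0999).

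Ftl1 (ENSMUSG00000050708) encodes the ferritin light chain, which helps to form the iron core. It stood at 1589, 1549 and 1698 CPM in Cre_negative and 2192, 2247 and 2136 CPM in Cre_positive replicates 1, 2 and 3. Each Cre_positive library was thus above every Cre_negative one, and the spread within each group was small beside the gap. The means of 1612 ± 77.2 and 2191 ± 55.2 CPM (SD, n = 3) differed 1.36-fold, or by 0.44 on the log2 scale (SE 0.085, 95% interval 0.25 to 0.63, adjusted p = 0.0172). Leaving out a Cre_positive library ended the call (adjusted p = 0.0716, 0.0870 and 0.0771 without replicates 1, 2 and 3), although the log2 fold change stayed between 0.41 and 0.48.

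Fth1 (ENSMUSG00000024661), the ferritin heavy chain with the ferroxidase site, did not pass. Its level was 2564, 2997 and 2734 CPM in Cre_negative and 2212, 2758 and 2343 CPM in Cre_positive replicates 1, 2 and 3. The groups overlapped, since Cre_positive replicate 2 stood above both Cre_negative replicates 1 and 3. The log2 fold change was -0.18 (SE 0.11, 95% interval -0.44 to 0.07, adjusted p = 0.380).

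Within single libraries, where scaling between libraries plays no part, the ratio of Fth1 to Ftl1 counts was 1.61, 1.93 and 1.61 in Cre_negative and 1.01, 1.23 and 1.10 in Cre_positive replicates 1, 2 and 3. The heavy chain thus exceeded the light chain clearly in all Cre_negative libraries, and the counts were nearly equal in Cre_positive replicate 1. The mean ratio was 1.72 ± 0.186 against 1.11 ± 0.110 (SD, n = 3), a log2 difference of -0.63. A two-sided exact permutation test gave p = 0.1, the smallest that 3 against 3 samples allow, and this ratio was chosen after the values were seen. The summed CPM of both chains overlapped between the groups, at 4153 to 4546 and 4403 to 5005. Both ferritins have processed copies in the genome: Ftl1-ps1 held 1.99% to 2.13% as many counts as Ftl1 in each library and changed by 0.45 on the log2 scale (adjusted p = 0.0155), so some reads may be shared between the copies.

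**Figure D2:**
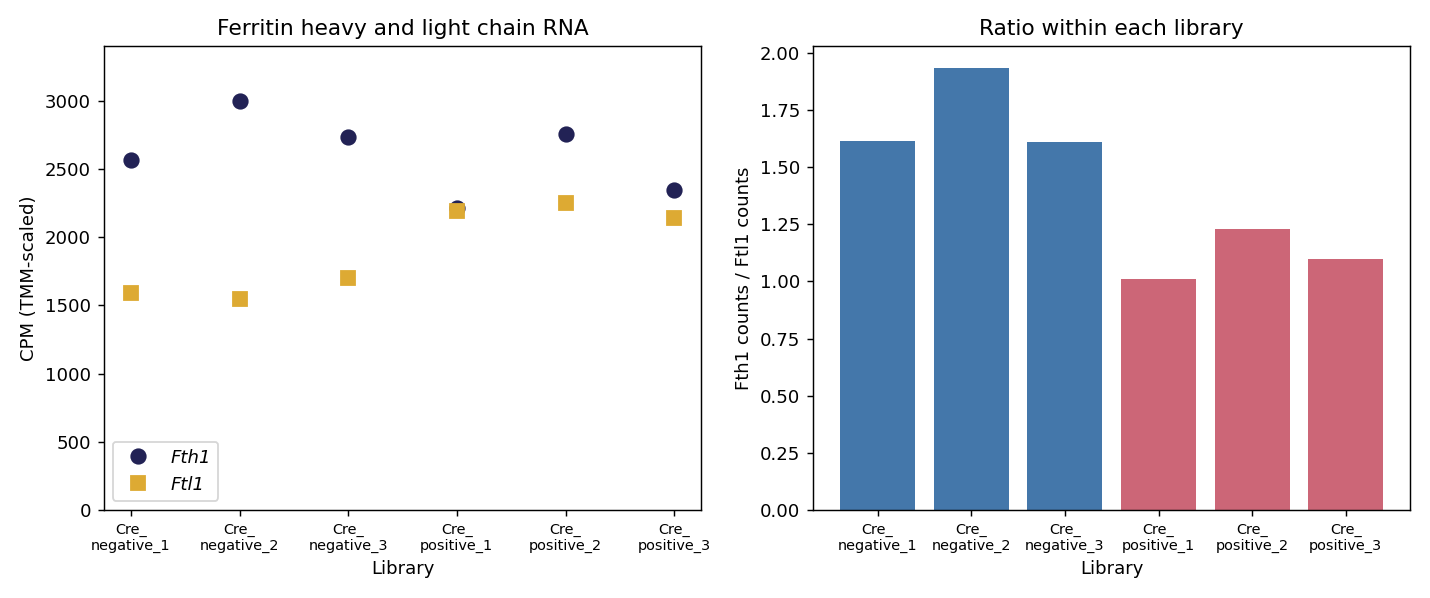
Left, CPM of the ferritin heavy chain (Fth1, circles) and light chain (Ftl1, squares) in each library. Right, Fth1 counts divided by Ftl1 counts, as bars from 0: the 3 Cre_negative libraries are between 1.61 and 1.93 and the 3 Cre_positive ones between 1.01 and 1.23.

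Of the uptake genes, Slc11a2 (ENSMUSG00000023030) rose. It encodes DMT1, which moves ferrous iron out of endosomes and, in the gut, into the cell. Its level was 99.1, 92.5 and 84.2 CPM in Cre_negative and 115.9, 138.8 and 121.2 CPM in Cre_positive replicates 1, 2 and 3, without overlap. The log2 fold change was 0.45 (SE 0.092, 95% interval 0.24 to 0.65, adjusted p = 0.0224), a 1.36-fold rise. It no longer passed without Cre_negative replicate 2 (adjusted p = 0.0577), Cre_positive replicate 2 (0.0852) or Cre_positive replicate 3 (0.0786). Gm5475, on the opposite strand, shares 402 exonic bases with it and had 28 to 56 counts in Cre_negative and 125 to 167 in Cre_positive libraries, against 4738 to 7909 for Slc11a2.

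Tfrc (ENSMUSG00000022797), the transferrin receptor, was higher in all Cre_positive libraries but did not pass. It stood at 85.0, 105.8 and 66.6 CPM in Cre_negative and 113.8, 115.6 and 108.5 CPM in Cre_positive replicates 1, 2 and 3. The Cre_negative libraries were spread widely and the Cre_positive ones lay close together (SD 19.6 and 3.67 CPM, n = 3). The log2 fold change was 0.39 (SE 0.15, 95% interval 0.05 to 0.74, adjusted p = 0.164); it was 0.57 without Cre_negative replicate 2, the highest of its group, and then passed (adjusted p = 0.0284), and 0.24 without Cre_negative replicate 3, the lowest (adjusted p = 0.179).

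Trf (ENSMUSG00000032554), transferrin itself, was at 94.3, 165.4 and 140.2 CPM in Cre_negative and 105.5, 64.8 and 80.9 CPM in Cre_positive replicates 1, 2 and 3. Cre_negative replicate 1 lay below Cre_positive replicate 1, so the groups overlapped. The log2 fold change of -0.67 was the second largest in size of the 10, but its SE of 0.26 was the largest and the adjusted p was 0.183. The order of the Cre_negative libraries was also not that of Tfrc, whose lowest library was replicate 3.

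The exporter and the iron sensors showed no change that passed. Slc40a1 (ENSMUSG00000025993), ferroportin, was at 98.9, 82.8 and 88.9 CPM in Cre_negative and 93.4, 68.2 and 81.6 CPM in Cre_positive libraries, overlapping, with a log2 fold change of -0.15 (95% interval -0.42 to 0.11, adjusted p = 0.488). Aco1 (ENSMUSG00000028405) encodes IRP1, which is a cytosolic aconitase when it holds an iron-sulfur cluster, and was at 420.7, 480.0 and 374.3 against 454.5, 447.8 and 470.6 CPM. Its log2 fold change was 0.11 (95% interval -0.12 to 0.33, adjusted p = 0.575). Ireb2 (ENSMUSG00000032293), the gene of IRP2, a sensor that is degraded in iron-rich cells, was at 109.2, 99.1 and 97.0 against 122.4, 95.4 and 113.1 CPM. With a log2 fold change of 0.12 (95% interval -0.11 to 0.34, adjusted p = 0.537), changes of more than 1.27-fold in either direction lay outside its interval. RNA counts do not measure the binding activity or the protein level of these regulators.

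**Figure D3:**
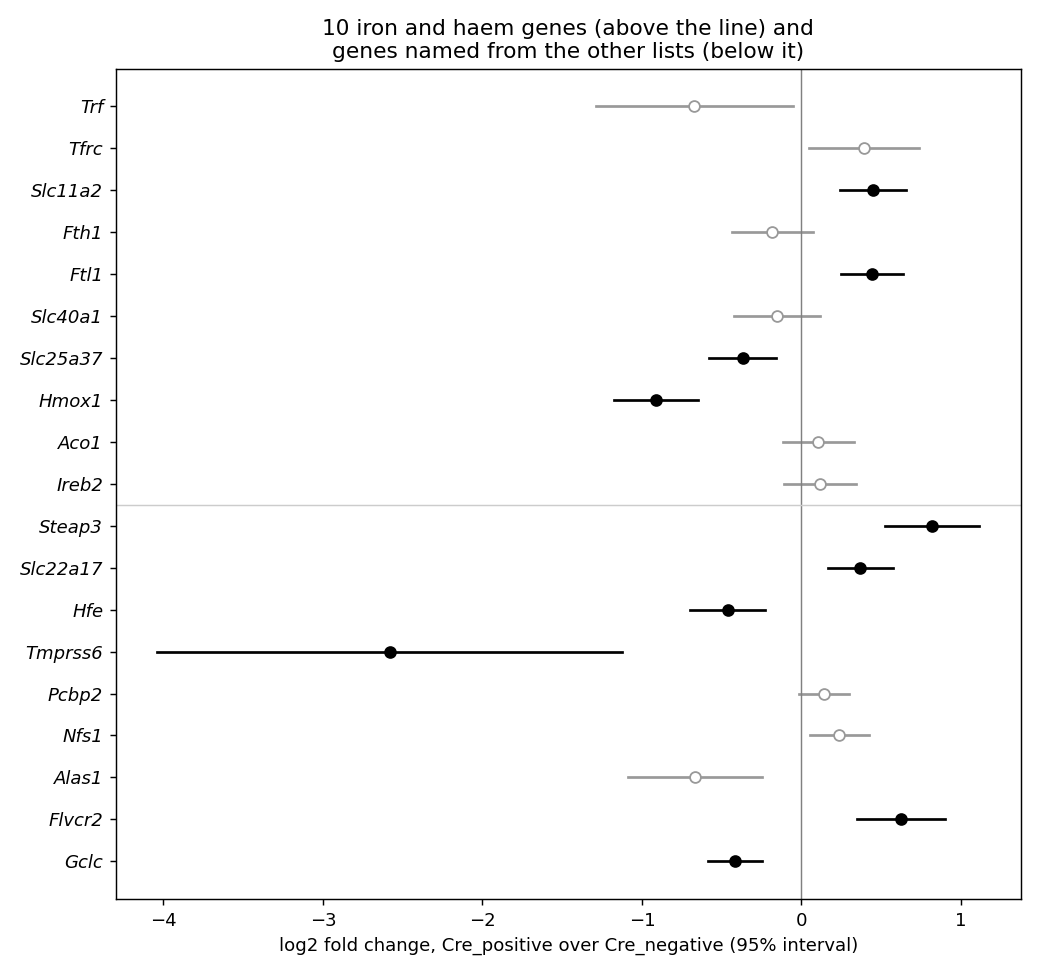
Log2 fold change of Cre_positive over Cre_negative with its 95% interval (not adjusted for the number of genes) for the 10 genes and for 9 genes named from the other lists. Filled points passed an adjusted p of 0.05; Hmox1 has the lowest value of the 10, at -0.91, and Ftl1 and Slc11a2 have nearly equal values of 0.44 and 0.45.

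Per kilobase of transcript, the ferritin chains stood far above the other 8 genes. On that scale, CPM divided by the length of the principal transcript in kilobases, the Cre_negative level was 2976 ± 235 for Fth1 and 1665 ± 79.7 for Ftl1 (SD, n = 3). In Cre_positive libraries the ranges nearly met, with the highest Ftl1 value of the 6 libraries at 2321 and the lowest Fth1 value at 2381. Aco1 followed at 110.9 ± 13.8 and Trf at 51.9 ± 14.0 CPM per kilobase in Cre_negative. Slc11a2 (30.4 ± 2.47), Slc40a1 (26.8 ± 2.42) and Hmox1 (23.3 ± 1.37) came next, then Ireb2 (17.6 ± 1.13), Tfrc (17.6 ± 4.01) and Slc25a37 (13.1 ± 0.736). Slc11a2 and Slc40a1, Slc40a1 and Hmox1, Ireb2 and Tfrc, and Tfrc and Slc25a37, neighbours in this order, differed by less than the sum of their SDs. In Cre_positive libraries Hmox1 stood at 12.4 ± 1.86, below Tfrc at 23.0 ± 0.755 CPM per kilobase.

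A list of 63 other iron and haem genes, in 7 groups by role, gave 3 that rose and 3 that fell among the 59 tested, and 53 that did not pass. That is 10.2% against 7.55% of all genes tested, and the median log2 fold change was -0.06. The groups did not overlap for 24 of the 59 (40.7%, against 29.7% of all genes tested). DESeq2 called 16 of these genes, where it called 14.3% of all genes with an adjusted p. Leaving out single Cre_negative libraries gave 4 of them without replicate 1 (5.58% of all genes), 4 without replicate 2 (5%) and 15 without replicate 3 (9.92%). Leaving out single Cre_positive libraries gave 2 without replicate 1 (3.4% of all genes), 1 without replicate 2 (2.94%) and 2 without replicate 3 (2.24%).

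Among 11 genes of iron uptake and reduction, 2 rose and 9 did not pass. Steap3, the endosomal reductase that prepares iron for DMT1, was at 16.5, 14.5 and 12.5 CPM in Cre_negative and 26.9, 27.4 and 22.4 CPM in Cre_positive replicates 1, 2 and 3. It rose by 0.82 on the log2 scale (SE 0.13, adjusted p = 0.00869) and passed in all 14 other settings (0.77, adjusted p = 0.0460 without Cre_positive replicate 2). Slc22a17, the receptor of lipocalin-2, went from 47.8, 56.7 and 58.9 to 71.8, 72.1 and 67.2 CPM (log2 fold change 0.37, SE 0.090, adjusted p = 0.0424), and passed in 8 of 14 other settings. Its call ended when any library but Cre_negative replicate 3 was left out (adjusted p up to 0.141). Lcn2, lipocalin-2, a siderophore-binding protein known as a marker of kidney injury, was chosen here after its values were seen. It was at 129, 40.6 and 14.9 CPM in Cre_negative and 1.99, 4.16 and 2.03 CPM in Cre_positive libraries, and did not pass (log2 fold change -4.49, SE 1.00, adjusted p = 0.0679; -4.94 and 0.154 without Cre_positive replicate 2). Its highest library, Cre_negative replicate 1, also had the highest sum of injured tubule markers, at 669 CPM, and of macrophage markers, at 278.5 CPM. The part of these cell types in the Lcn2 values was not tested.

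Of the 5 tested genes of iron export and hepcidin control, 2 fell and 3 did not pass. Hfe, whose protein binds the transferrin receptor and takes part in hepcidin control, was at 46.0, 47.5 and 39.4 CPM in Cre_negative and 33.9, 33.9 and 28.6 CPM in Cre_positive replicates 1, 2 and 3 (log2 fold change -0.46, SE 0.10, adjusted p = 0.0312). Tmprss6, the protease matriptase-2 that restrains hepcidin in liver, went from 5.24, 3.02 and 3.77 to 1.27, 0.158 and 0.578 CPM, which is -2.58 on the log2 scale (SE 0.63, adjusted p = 0.0498). Hfe passed in 9 and Tmprss6 in 6 of 14 other settings. The call of Hfe ended when any library but Cre_negative replicate 3 was left out (adjusted p up to 0.123), and that of Tmprss6 when any but Cre_positive replicate 1 was (up to 0.182). The log2 fold change of Tmprss6 was -3.45 without Cre_positive replicate 1 and -2.11 without Cre_positive replicate 2. Hamp, hepcidin itself, had 1 count in 1 library and 0 in the other 5.

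Haem synthesis genes included none of 9 that passed with edgeR, while 2 had an unadjusted p under 0.05, 2 passed with DESeq2 and none with limma voom. The smallest p belonged to Alas1, the rate-limiting enzyme outside red cells, at 191, 258 and 172 CPM in Cre_negative and 118.8, 115.1 and 157.2 CPM in Cre_positive replicates 1, 2 and 3, without overlap. Its log2 fold change was -0.67 (SE 0.18, adjusted p = 0.0695), and it passed with DESeq2 (adjusted p = 0.000262) and without Cre_negative replicate 3 (0.0422). The last enzyme, Fech, which inserts iron into the ring, was at -0.0063 on the log2 scale (SE 0.076).

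Of 12 genes of haem breakdown and transport, Flvcr2 rose and 11 did not pass. Flvcr2, a transporter of the feline leukaemia virus receptor family, went from 26.7, 34.9 and 31.6 to 54.6, 44.9 and 44.3 CPM in replicates 1, 2 and 3, without overlap (log2 fold change 0.63, SE 0.12, adjusted p = 0.0185). Leaving out any Cre_positive library ended this call (adjusted p up to 0.0671). The constitutive enzyme Hmox2 was at 0.08 on the log2 scale (SE 0.085, adjusted p = 0.620), beside the -0.91 of Hmox1. Blvra, biliverdin reductase A, which acts next after haem oxygenase, was at -0.30 (SE 0.080, adjusted p = 0.0574) and did not pass. Bach1, the repressor of Hmox1 that haem inactivates, was at 0.09 (SE 0.084, adjusted p = 0.559).

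**Figure D4:**
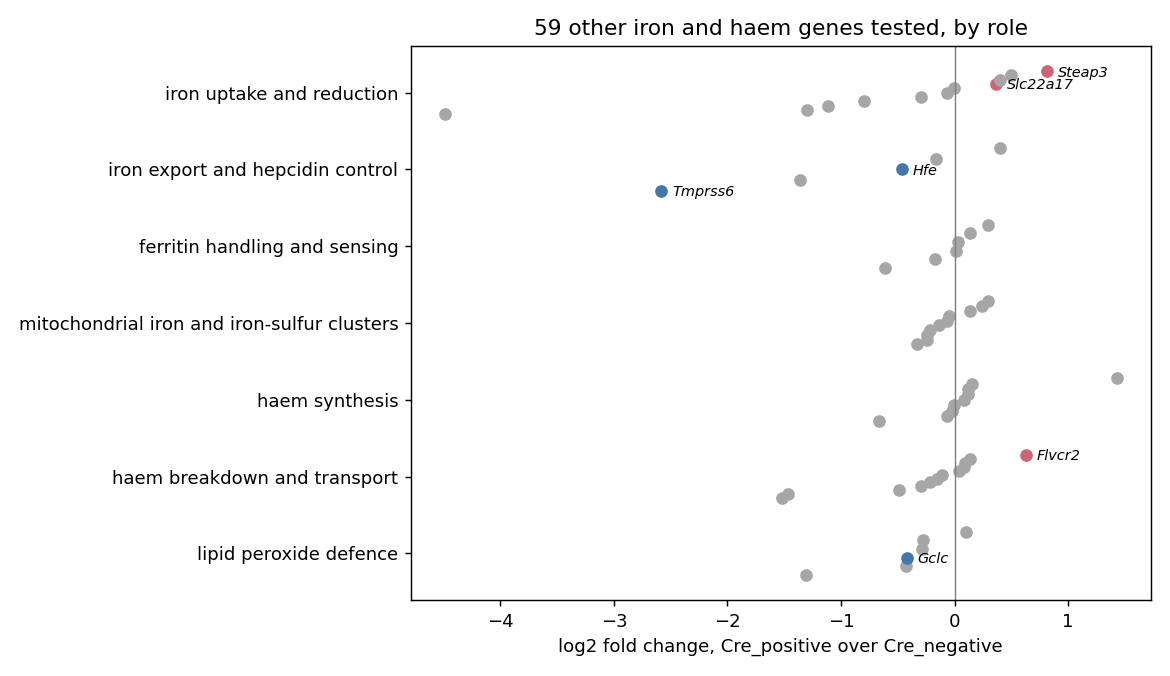
Log2 fold change of Cre_positive over Cre_negative for 59 other iron and haem genes, in 7 groups by role, 1 point per gene. Red points rose and blue points fell at an adjusted p of 0.05, and grey points did not pass; most points lie near 0, and the lowest grey point, at -4.49, is Lcn2.

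In the groups for ferritin handling and for mitochondrial iron and iron-sulfur clusters, none of 6 and none of 10 genes passed with edgeR or limma voom. DESeq2 called 0 of the 6 and 1 of the 10, and 0 and 3 had an unadjusted p under 0.05. The smallest p values were those of Pcbp2, an iron chaperone of ferritin (log2 fold change 0.14, SE 0.069, adjusted p = 0.265), and Nfs1, the cysteine desulfurase that supplies sulfur to the clusters (0.24, SE 0.080, adjusted p = 0.115). Ncoa4, the receptor that sends ferritin to lysosomes, was at -0.17 (SE 0.088, adjusted p = 0.286). Fbxl5, part of the ligase that degrades IRP2, was at 0.01 (SE 0.068, adjusted p = 0.939).

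Among 6 genes that bear on lipid peroxides, the damage that free iron promotes, Gclc fell and 5 did not pass. Gclc, the catalytic subunit of glutathione synthesis, was at 281, 247 and 255 CPM in Cre_negative and 198, 191 and 197 CPM in Cre_positive replicates 1, 2 and 3 (log2 fold change -0.42, SE 0.075, adjusted p = 0.0134). This call, too, was lost when any Cre_positive library was left out (adjusted p up to 0.0720). The partner subunit Gclm was at 0.10 (SE 0.074, adjusted p = 0.482), and Gpx4, the enzyme that reduces lipid peroxides in membranes, at -0.29 (SE 0.11, adjusted p = 0.167).

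Of the 19 genes followed across the settings, the 10 and the 9 named by rule from the other lists, Hmox1 and Steap3 were those that passed in all 14, while Ftl1 and Slc11a2 passed in 11 each and Slc25a37 in 6.

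**Figure D5:**
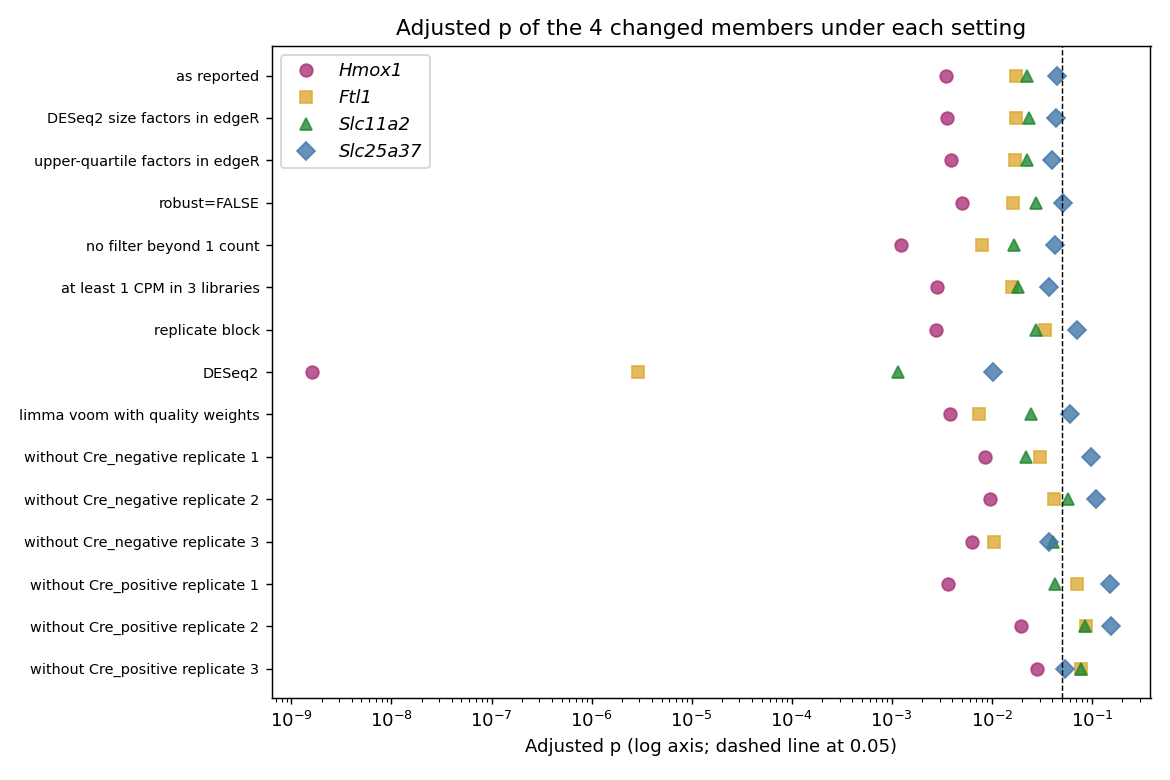
Adjusted p (log axis, dashed line at 0.05) of Hmox1, Ftl1, Slc11a2 and Slc25a37 as reported and under 14 other settings, 1 row each. Hmox1 stays left of the line in every row, at up to 0.0281, and the other 3 cross it in some rows that leave out a library. Slc25a37 also crosses it with robust=FALSE, with the replicate block and with limma voom.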

How the data were processed

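RNA was prepared with TRIzol, selected for poly(A) and made into strand-marked paired-end libraries, per the labels' protocols. Per the submitters' processing notes, the tools included HISAT2, StringTie, fastp and edgeR with the build GRCm39, in no stated order. The counts deposited by the authors are whole numbers per Ensembl gene, unnormalized, in 1 table; which annotation and strand setting were used, and how multi-matching reads were counted, is not given in the sources used here. Total counts were 53571438 to 58807042.

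Symbols came from a table covering 51880 of 57132 rows. Counts were analysed in R 4.3.3 with edgeR 4.0.16: filterByExpr, TMM factors, quasi-likelihood test (robust=TRUE), Benjamini-Hochberg adjustment over 19927 genes and a threshold of 0.05. CPM values are TMM-scaled. An SE is the log2 fold change over the square root of F. The test was checked on simulated counts in which genes drawn at random were changed. It called 26.9% of 1.5-fold, 52.2% of 2-fold and 65.2% of 4-fold changes, and 9 of its 105 calls were false. A gene that did not pass may therefore still differ. Library pairs differed by a chi-square of at least 20.6 per degree of freedom, so none was a copy of another. Hairpins and transcript lengths came from GENCODE M21 (GRCm38), so no genome coordinates are given. Other settings were DESeq2 1.42.0, limma 3.58.1 voom, other factors and filters, robust=FALSE, a replicate block, an adjusted p of 0.01 and each library left out. The marker and role lists without Cre_positive replicate 2, and the macrophage sum without Csf1r, were added after seeing the data.

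The 10 genes and all lists were chosen with earlier results of these data known. Named from each other list were up to 4 genes past the threshold by smallest p, or else the gene with the smallest p. Others named were chosen for their role, or after their values were seen.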

Additional observations from a re-analysis of the deposited data

How the results depend on the processing

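No direction of the 19 genes followed (the 10 and 9 from the other lists) reversed under 14 other settings each. Of the 266 values, 39 no longer passed, 32 of them with a library left out, and 3 passed anew. The 266 include values of genes that did not pass as reported, which could not lose a call. Among the genes that did pass, Hmox1 and Steap3 passed in all 14 settings, and Ftl1, Slc11a2, Flvcr2 and Gclc in 11. Hfe passed in 9, Slc22a17 in 8, and Slc25a37 and Tmprss6 in 6. DESeq2 called 2568 genes in the whole table against 1505, and 16 of the other iron and haem genes against 6; the cause was not tested. At an adjusted p of 0.01 the whole table gave 414. Leaving out single libraries gave 462 to 2039 genes in the whole table, 1 to 4 of the 10 and 1 to 15 of the other iron and haem genes. Fewer samples enter those tests, and the lowest counts came without a Cre_positive library. Of the 10, 2 passed without Cre_positive replicate 1 and 1 without replicate 2 or 3. Other size factors moved the median of all genes by less than 0.1. Same-numbered libraries correlated at 0.0547, 0.0551 and 0.0173 in their deviations from the group means; each correlated best with its own number, weakly, and the labels give no shared animal or batch. With the replicate number as a block, 1541 genes passed in the whole table, 3 of the 10 (without Slc25a37) and 7 of the other genes. Intervals cover the spread between 3 libraries a group; counts of low genes such as Tmprss6 limit their precision.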
